A study of Mus musculus with 10 samples.

Results

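The genes described here encode 8 transcription factors that set and hold the hepatocyte lineage: Hnf4a, Foxa1, Foxa2, Foxa3, Cebpa, Cebpb, Onecut1 and Prox1. They were chosen by name, with earlier results of these data known. Each was read from the array feature that carried its symbol alone, with the highest mean over all libraries where a gene had several. All 8 were measured, by 1 feature each, out of 16401 genes with such a feature, and all 8 passed the filter on low values that left 11480 genes for testing. The question put to them was which factor genes were lower in each knockdown arm where hepatocyte products were lower too. RNA came from primary hepatocytes of male C57BL6/J mice aged 10 weeks, kept in culture and transduced for 72 hours with an adenovirus carrying 1 of 3 short hairpin RNAs: a non-specific one (shNS), one against the histone methyltransferase subunit WDR5 (shWDR5) or one against the acetyltransferase KAT2B (shKAT2B). Cells then received 100 nM glucagon, which the pancreas releases in fasting, or phosphate-buffered saline (PBS) for 90 minutes. The 10 Affymetrix libraries, each a pool of RNA from 3 dishes, gave 2 replicates (lettered A and B) of shNS cells under either treatment and of glucagon-treated shWDR5 and shKAT2B cells. PBS-treated shWDR5 and shKAT2B cells gave 1 library each (A). All groups share adenoviral transduction and culture, and the labels give 1 hairpin per target, so an effect of a depletion and any other effect of its hairpin cannot be told apart.

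Hepatocyte identity rests on a network of factors that bind together at liver promoters and enhancers and that sustain each other's transcription. FOXA1, FOXA2 and FOXA3 are forkhead proteins, of which FOXA1 and FOXA2 open chromatin in the embryonic liver bud. HNF4A is a nuclear receptor required for the expression of apolipoproteins, clotting factors and many metabolic enzymes, C/EBP-alpha (Cebpa) and C/EBP-beta (Cebpb) are leucine zipper proteins that drive albumin, urea cycle and acute phase genes, ONECUT1 (also called HNF6) is a cut-homeodomain protein, and PROX1 is a homeodomain protein that partners with HNF4A. In the liver, glucagon raises cyclic AMP and acts through protein kinase A and CREB, which binds the cyclic AMP response element.

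Promoter windows of the 4 genes on which most of the comparisons turn are shown for their motifs: Foxa3 was called in both arms and under glucagon, Onecut1 had the largest difference in the shKAT2B arm, Hnf4a fell in that arm, and Cebpb is a known target of cyclic AMP signals. Each window runs from 250 bases before to 50 bases after a RefSeq start site, on the strand of the gene, in build GRCm38.p6: Foxa3 at chr7:19023490-19023789 (minus strand), Onecut1 at chr9:74861671-74861970, the downstream of the 2 Hnf4a start sites in the table at chr2:163546905-163547204 and Cebpb at chr2:167688665-167688964 (plus strand). Capitals mark the TATA box letters TATAAA in Foxa3 and Cebpb, the core of the cyclic AMP response element, TGACG, in Onecut1 and Cebpb, and the core of the HNF1 motif, GTTAAT, in Hnf4a. All motifs were searched on both strands.
Foxa3: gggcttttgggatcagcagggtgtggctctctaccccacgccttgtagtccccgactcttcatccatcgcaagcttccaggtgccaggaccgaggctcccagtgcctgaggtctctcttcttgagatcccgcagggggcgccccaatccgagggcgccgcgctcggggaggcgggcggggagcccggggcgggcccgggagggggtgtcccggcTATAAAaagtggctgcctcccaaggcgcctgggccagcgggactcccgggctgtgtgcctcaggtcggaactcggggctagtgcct
Onecut1: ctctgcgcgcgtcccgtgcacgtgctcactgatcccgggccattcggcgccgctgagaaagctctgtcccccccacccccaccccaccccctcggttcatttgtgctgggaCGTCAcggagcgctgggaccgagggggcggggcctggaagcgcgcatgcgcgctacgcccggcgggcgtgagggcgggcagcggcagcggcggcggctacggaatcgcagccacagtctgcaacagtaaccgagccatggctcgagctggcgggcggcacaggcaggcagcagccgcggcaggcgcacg
Hnf4a: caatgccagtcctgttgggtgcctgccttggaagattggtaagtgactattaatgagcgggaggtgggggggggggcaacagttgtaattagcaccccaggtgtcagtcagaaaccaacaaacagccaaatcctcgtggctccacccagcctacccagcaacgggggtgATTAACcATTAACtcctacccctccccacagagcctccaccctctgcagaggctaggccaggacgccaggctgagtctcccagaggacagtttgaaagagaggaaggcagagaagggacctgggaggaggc
Cebpb: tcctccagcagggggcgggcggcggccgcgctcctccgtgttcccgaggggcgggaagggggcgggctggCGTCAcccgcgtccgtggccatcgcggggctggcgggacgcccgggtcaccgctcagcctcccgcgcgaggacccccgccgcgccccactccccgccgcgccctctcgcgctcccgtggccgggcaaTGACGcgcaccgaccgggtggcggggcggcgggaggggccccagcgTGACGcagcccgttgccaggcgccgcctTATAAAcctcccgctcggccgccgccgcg

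The Foxa3 TATAAA began 36 bases before the start site, and that of Cebpb began after the start site, at position 272 of its window. The Hnf4a window held GTTAAT at 2 adjoining places on the opposite strand, 81 and 74 bases before the start, a motif present in 7.1% of all 32851 promoter windows of this length. The Cebpb window held TGACG at 3 places, 180, 53 and 7 bases before the start, and the Onecut1 window at 1 place, 139 bases before it, against 20.8% of all windows with at least 1. Of the 12 windows of the 8 genes, TGACG stood in 3 (25.0%), those of Cebpb and Onecut1 and 1 of Foxa2. GTTAAT stood in 2 of the 12, 1 of Hnf4a and 1 of Foxa2. Among the 12 windows of the 8 genes, TATAAA stood in 5 (13.6% of all windows), the HNF6 core ATCAAT in 2, in Foxa2 and in the upstream Hnf4a window (7.54%), and the forkhead motif TGTTTAC in 1, that of Foxa1 (3.65%). The C/EBP motif TTGCNNAA stood in 0 of the 12 (10.8% of all windows), and the HNF4A motif CAAAGTCCA in 0 (0.475%). Of the 12 windows, 10 held more CG dinucleotides than the median promoter (7), and both Hnf4a windows held fewer (4 each). By RefSeq the genes lie at chr2:163506811-163572907 (Hnf4a), chr12:57540628-57548029 (Foxa1), chr2:148042877-148046969 (Foxa2), chr7:19013283-19023539 (Foxa3), chr7:35119293-35121928 (Cebpa), chr2:167688915-167690432 (Cebpb), chr9:74861921-74889648 (Onecut1) and chr1:190118035-190170827 (Prox1). Their array features, in that order, are 10478389, 10400504, 10488374, 10560431, 10552140, 10478890, 10587082 and 10361023. Motif matches are of letters only, and binding was not measured.

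Each hairpin lowered its target: Wdr5 was 3.33-fold lower in shWDR5 and Kat2b 6.52-fold lower in shKAT2B than in shNS, with no overlap. Levels below are log2 of intensity + 1. Of 13 hepatocyte markers 11 were measured and 9 passed the filter, with means of single markers from 5.83 to 13.86. Their mean level ranged from 9.97 to 10.35 in shNS, 9.81 to 10.14 in shWDR5 and 9.58 to 9.77 in shKAT2B, so the shKAT2B libraries lay below all others. The libraries also fell into 2 sets that neither arm nor treatment accounts for, called batches here: the first component of the residuals held 78% of their variance and set both shNS libraries lettered A and the A libraries of glucagon-treated shWDR5 and shKAT2B cells (first batch) apart from the other 6 (second batch, 1 library of each group). Of the 8 factor genes, Cebpb differed most between batches, by -0.38 in the second against the first, and Hnf4a least, by 0.01. Where the batch as a term changes a call of a factor gene, that value is given beside it. The batch was read from these same residuals, so p-values from fits that contain it are too small. The same limit holds for fits within the second batch alone, which was picked in the same way and holds 1 library of each group.

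In the shKAT2B arm, 5 of the 8 factor genes fell (Onecut1, Prox1, Foxa3, Cebpa and Hnf4a) and 0 rose, with differences from shNS between -0.33 and -0.70 on the log2 scale, 1.26-fold to 1.63-fold. Over all genes tested, 8.95% were called lower and 6.66% higher in this comparison (limma with Benjamini-Hochberg adjustment over all genes, adjusted p below 0.05). The median difference of the 8 genes was -0.39, against 0.01 over all genes tested. Cebpb, Foxa2 and Foxa1 did not pass.

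Onecut1, a regulator of bile duct and hepatocyte differentiation upstream of Hnf4a, read 7.66 in the PBS library of shKAT2B and 8.79 (A) and 8.37 (B) in its glucagon libraries, against 8.63 and 8.42 in shNS PBS and 9.34 and 9.10 in shNS glucagon. Within each treatment every shKAT2B library lay below every shNS library, and across treatments the ranges overlapped. The difference was -0.70 ± 0.16 (standard error of the model, as below; 3 shKAT2B against 4 shNS libraries, adjusted p = 0.0181). Matched within a batch it was -0.55 and -0.73 under glucagon and -0.77 in PBS.

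Prox1 read 9.24 in the PBS library of shKAT2B and 9.74 (A) and 9.44 (B) in its glucagon libraries, against 9.91 and 9.78 in shNS PBS and 10.23 and 9.94 in shNS glucagon. The shKAT2B range ended below the lowest shNS library, whatever the treatment. The difference was -0.53 ± 0.11 (adjusted p = 0.0109), and the 3 matched differences lay between -0.49 and -0.54. This was the narrowest span of matched differences among the 5 genes that fell.

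Foxa3, a forkhead factor of the adult liver, read 8.47 in the PBS library of shKAT2B and 8.90 (A) and 8.86 (B) in its glucagon libraries, against 8.85 and 8.87 in shNS PBS and 9.25 and 9.46 in shNS glucagon. The groups overlapped only across treatments, since glucagon-treated shKAT2B cells reached the level of PBS-treated shNS cells. The difference was -0.43 ± 0.08 (adjusted p = 0.00782).

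Hnf4a read 11.44 in the PBS library of shKAT2B and 11.69 (A) and 11.60 (B) in its glucagon libraries, against 11.73 and 11.66 in shNS PBS and 12.05 and 12.02 in shNS glucagon. The difference was -0.33 ± 0.06 (adjusted p = 0.00841), and the arms overlapped only across treatments. Cebpa read 9.0 in the PBS library of shKAT2B and 9.16 (A) and 9.09 (B) in its glucagon libraries, against 9.31, 9.24, 9.66 and 9.40 in the shNS libraries, a difference of -0.35 ± 0.08 (adjusted p = 0.0236), and the 2 arms did not overlap. For both genes all 3 matched differences were below 0, from -0.22 to -0.42 for Hnf4a and from -0.24 to -0.50 for Cebpa.

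Cebpb, the C/EBP family member that cyclic AMP and inflammation induce, read 8.70 in the PBS library of shKAT2B and 9.56 (A) and 9.25 (B) in its glucagon libraries, against 9.5 and 9.15 in shNS PBS and 9.93 and 9.61 in shNS glucagon. Its difference of -0.47 ± 0.16 did not pass (adjusted p = 0.0733), while its matched differences were alike, at -0.37, -0.36 and -0.45. It passed with the batch as a term (-0.39, adjusted p = 0.000122) and with the letter as a replicate block (-0.54, adjusted p = 0.00235), as it did after quantile normalization (adjusted p = 0.0334) and in median-centred libraries (adjusted p = 0.0395). Foxa2 differed by -0.17 ± 0.07 and did not pass (adjusted p = 0.145), but passed with the batch as a term (-0.17, adjusted p = 0.0325), with matched differences of -0.17, -0.15 and -0.22. It stood at 8.84 to 9.11 in shKAT2B against 9.01 to 9.26 in shNS, with every shKAT2B library below the shNS libraries of its treatment. Foxa1 differed by -0.05 ± 0.11 (adjusted p = 0.8, 95% interval -0.29 to 0.19), at 10.45 to 10.90 in shKAT2B against 10.54 to 10.82 in shNS, and its sign turned with the batch as a term (0.00) and without shKAT2B PBS A (0.03).

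Lower values in all 3 matched pairs were found for 7 of the 8 genes, Foxa1 being the other, against 29.6% of all genes tested. No overlap with shNS within either treatment was also found for 7, against 16.6%. The single PBS library of the arm carried much of the statistical weight: without shKAT2B PBS A, where the arm rests on 2 glucagon libraries, 0 of the 8 were called, although the 5 differences stayed between -0.35 and -0.54 (adjusted p from 0.0546 for Hnf4a to 0.154 for Onecut1). Without shKAT2B glucagon B 2 were called, Foxa3 and Hnf4a, and without shNS glucagon A 3, Prox1 in addition.

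**Figure D1:**
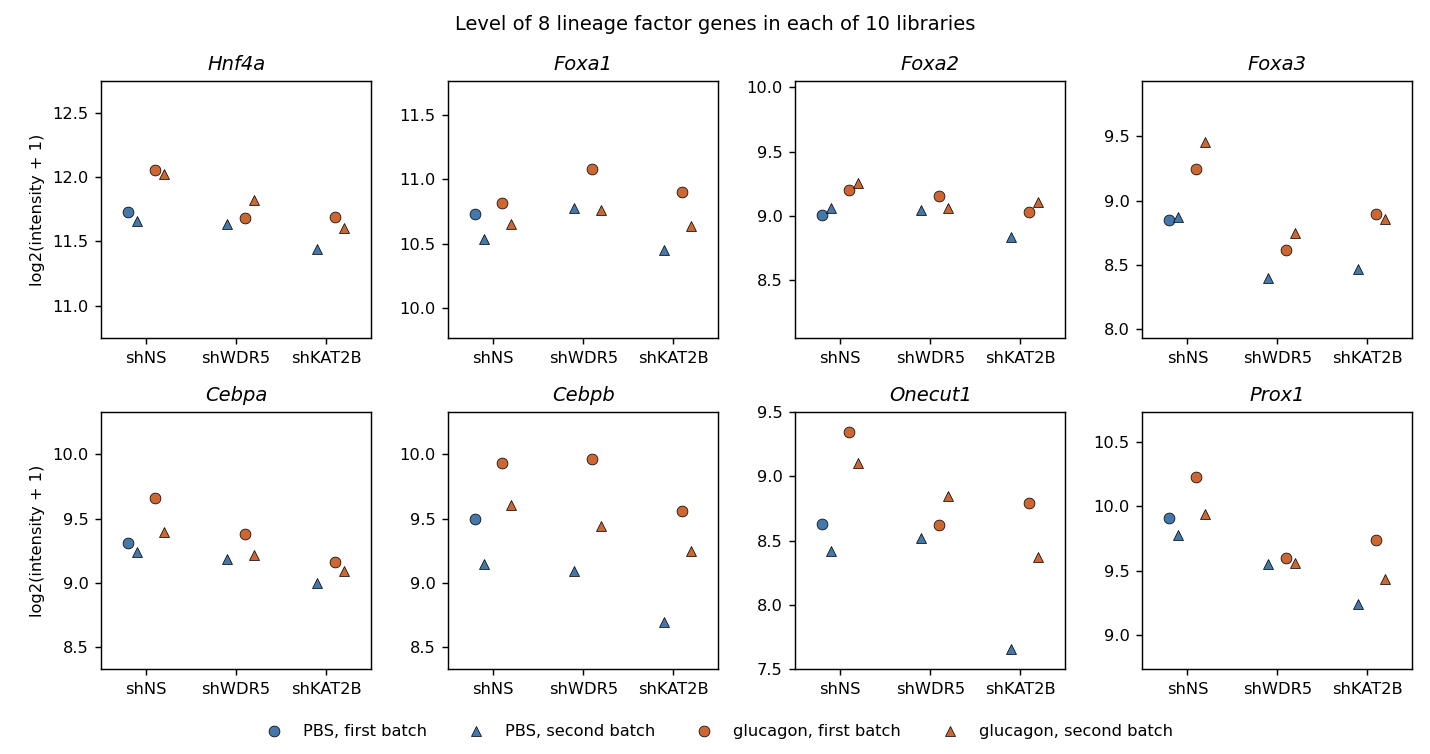
Level of each lineage factor gene in each library (vertical axis, log2 of intensity + 1, each panel spanning 2 units) by hairpin arm (horizontal axis), with colour for treatment and symbol for batch, 1 point a library. The shKAT2B points of Prox1 and Cebpa lie below all shNS points, and Prox1 in shWDR5 lies between 9.55 and 9.60.

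In the shWDR5 arm, 2 of the 8 factor genes fell, Foxa3 and Prox1, and 0 rose, against 6.17% of all genes called lower and 4.69% higher. The median difference of the 8 was -0.18, against -0.01 over all genes. Foxa3 read 8.40 in the PBS library of shWDR5 and 8.62 (A) and 8.75 (B) in its glucagon libraries, and every one of these lay below all 4 shNS libraries (8.85 to 9.46). The difference was -0.58 ± 0.08, or 1.5-fold lower (3 shWDR5 against 4 shNS libraries, adjusted p = 0.00414), and it passed whichever library was left out (adjusted p up to 0.0237 without shWDR5 PBS A). Matched differences were -0.63 and -0.71 under glucagon and -0.47 in PBS.

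Prox1 read 9.55 in the PBS library of shWDR5 and 9.60 (A) and 9.56 (B) in its glucagon libraries, against 9.78 to 10.23 in shNS. The 3 shWDR5 libraries were nearly equal and lay below every shNS library. The difference was -0.43 ± 0.11 (adjusted p = 0.0351). This call ended without any 1 of 7 libraries, namely shNS PBS B (adjusted p = 0.0578), shKAT2B PBS A (0.0587), shNS PBS A (0.0719), shWDR5 PBS A (0.0774), shWDR5 glucagon A (0.0848), shWDR5 glucagon B (0.117) and shNS glucagon A (0.119), while the difference stayed between -0.36 and -0.53.

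Hnf4a read 11.63 in the PBS library of shWDR5 and 11.68 (A) and 11.82 (B) in its glucagon libraries, a difference of -0.19 ± 0.06 that did not pass (adjusted p = 0.0848). Its matched differences were -0.37 and -0.20 under glucagon and -0.03 in PBS, and the gaps under the 2 treatments were not shown to differ (interaction -0.22 ± 0.13, adjusted p = 1). It passed with the batch as a term (-0.20, adjusted p = 0.0131) and with the replicate block (-0.20, adjusted p = 0.0342). Cebpa was at 9.19 in PBS and 9.38 and 9.22 in glucagon, a difference of -0.17 ± 0.08 (adjusted p = 0.255), with matched values of -0.28, -0.18 and -0.05. It passed with the replicate block (-0.20, adjusted p = 0.0461) and not with the batch as a term (-0.14, adjusted p = 0.0946).

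Onecut1 read 8.52 in the PBS library of shWDR5 and 8.62 (A) and 8.85 (B) in its glucagon libraries. Both glucagon libraries lay below those of shNS, by -0.72 and -0.25 when matched by batch, and the PBS library lay between the shNS PBS libraries, 0.10 above the one of its batch. The arm difference was -0.31 ± 0.16 (adjusted p = 0.264). Cebpb differed by -0.14 ± 0.16 (adjusted p = 0.616), with 9.09 in PBS and 9.96 and 9.44 in glucagon, and Foxa2 by -0.07 ± 0.07 (adjusted p = 0.577), with 9.05, 9.16 and 9.06. Cebpb lay just below shNS in PBS and had the highest library of the glucagon groups, and Foxa2 lay below both shNS libraries under glucagon and between them in PBS.

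Foxa1 was the only one of the 8 with a positive value in this arm, at 0.16 ± 0.11 (adjusted p = 0.389). It read 10.78 in the PBS library of shWDR5 and 11.08 (A) and 10.76 (B) in its glucagon libraries, against 10.73 and 10.54 in shNS PBS and 10.82 and 10.65 in shNS glucagon. Its matched differences were 0.26, 0.11 and 0.24, and it passed with the batch as a term (0.21, adjusted p = 0.00545). All 3 matched differences were below 0 for 5 of the 8 genes (28% of all genes tested) and above 0 for Foxa1 (31%), and 4 of the 8 lay below shNS with no overlap within either treatment (15.5%).

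**Figure D2:**
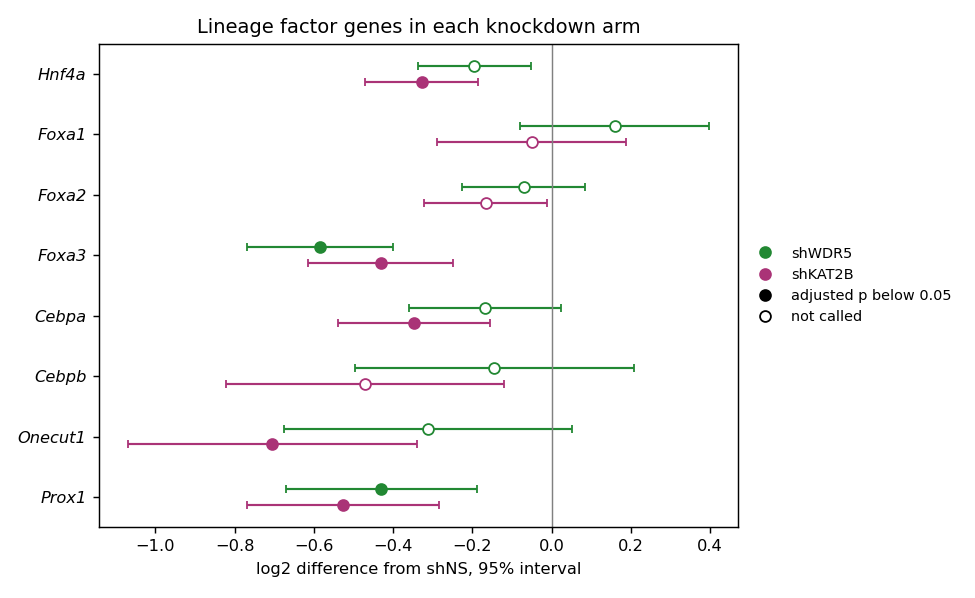
Difference of each lineage factor gene from shNS (horizontal axis, log2) in the shWDR5 arm and the shKAT2B arm, over both treatments, with 95% intervals from the additive fit of 10 libraries and filled points for adjusted p below 0.05. Foxa3 and Prox1 are filled in both arms, and Onecut1, Cebpa and Hnf4a in shKAT2B alone.

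A call in one arm and not in the other does not show that the arms differ, and both are set against the same shNS libraries. Tested directly, 0 of the 8 genes were called between shKAT2B and shWDR5 (3 against 3 libraries), where 22.7% of all genes were. An unadjusted p below 0.05 (limma) was reached by 1 of the 8, Onecut1, and by 4078 of all 11480 genes tested. For Onecut1 the difference of shKAT2B from shWDR5 was -0.39 ± 0.17 (95% interval -0.78 to -0.01, adjusted p = 0.134). It passed without shKAT2B glucagon A (-0.56, adjusted p = 0.0366), with the batch as a term (adjusted p = 0.0302) and within the second batch (-0.67, adjusted p = 0.000283). Cebpb differed by -0.33 ± 0.16 (interval -0.70 to 0.05, adjusted p = 0.195; adjusted p = 0.0283 with the replicate block and 0.000469 with the batch). Foxa1 differed by -0.21 ± 0.11 (interval -0.46 to 0.04; adjusted p = 0.0044 with the batch), Cebpa by -0.18 ± 0.09 (interval -0.38 to 0.02; adjusted p = 0.0381 with the batch) and Hnf4a by -0.13 ± 0.07 (interval -0.28 to 0.02). Foxa3 was the 1 gene with a value on the other side, 0.15 ± 0.09 (interval -0.04 to 0.35), and Prox1 (-0.10) and Foxa2 (-0.10) had intervals from -0.35 to 0.16 and from -0.26 to 0.07.

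Glucagon raised 1 of the 8 genes, Foxa3, by 0.41 ± 0.07 or 1.33-fold over the 3 arms (6 glucagon against 4 PBS libraries, adjusted p = 0.0285), and 0 fell, where 0.679% of all genes tested were called higher and 0.244% lower. That call ended without any 1 of 9 libraries, all but shWDR5 glucagon A, with adjusted p from 0.0585 without shKAT2B glucagon A to 0.175 without shKAT2B PBS A, and after quantile normalization (0.0777) and median centring (0.0618). Its difference stayed between 0.36 and 0.46 over the libraries left out.

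Onecut1 had the largest value of the 8, 0.62 ± 0.14 or 1.54-fold (adjusted p = 0.104), followed by Cebpb at 0.57 ± 0.13 (adjusted p = 0.138) and Hnf4a at 0.24 ± 0.05 (adjusted p = 0.113). None of these 3 passed in the additive fit. All 3 passed with the batch as a term (0.59, 0.46 and 0.24, adjusted p = 0.0103, 6.9e-05 and 0.0101), within the second batch alone (adjusted p = 0.00215, 0.00158 and 0.0218) and with the replicate block (0.67, 0.66 and 0.25, adjusted p = 0.0186, 0.00177 and 0.0381). The share of all genes called higher was 1.93% with the batch as a term. The other 4 genes had differences between 0.17 and 0.21 and did not pass in any of these fits.

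Set within arm and batch, glucagon minus PBS could be read 4 times. Onecut1 differed by 0.71 and 0.68 in shNS, 0.33 in shWDR5 and 0.72 in shKAT2B. Cebpb differed by 0.43 and 0.46 in shNS, 0.35 in shWDR5 and 0.55 in shKAT2B. In these pairs the lowest value was that of shWDR5 for both genes, but over all libraries Cebpb differed least in shNS (0.44, against 0.61 in shWDR5 and 0.70 in shKAT2B), so no order of the arms was shown. All 4 differences were above 0 for 7 of the 8 genes, against 9.16% of all genes tested, and Foxa1 was the other, with -0.02 in shWDR5. In shWDR5 the differences of Foxa2, Cebpa and Prox1 were 0.01, 0.03 and 0.01, against 0.20, 0.16 and 0.16 in the same batch of shNS.

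**Figure D3:**
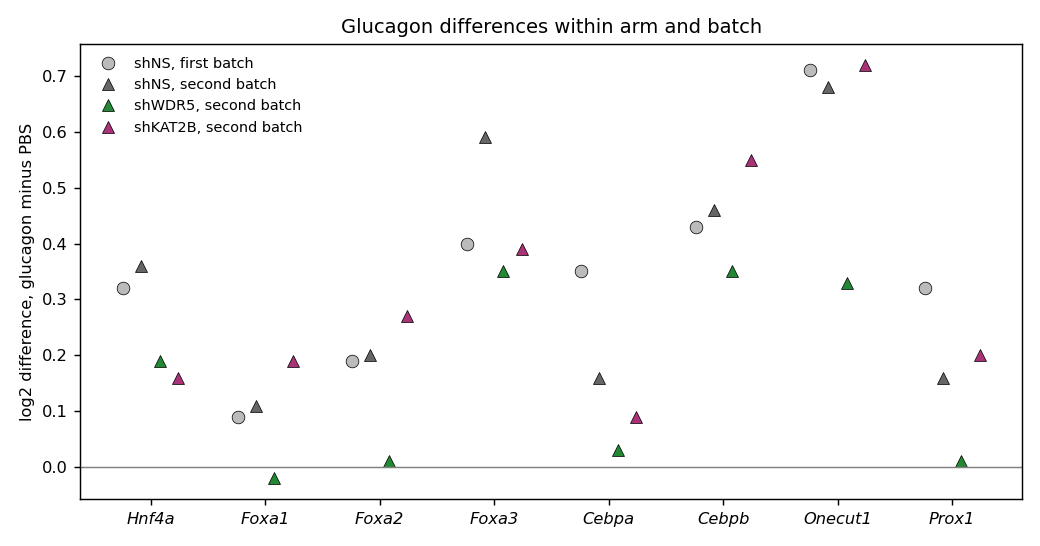
Glucagon minus PBS difference of each lineage factor gene (vertical axis, log2) within each arm and batch, 1 point for each pair of libraries. Onecut1 lies at 0.68 to 0.72 in shNS and shKAT2B and at 0.33 in shWDR5, and the lowest point of the plot is Foxa1 in shWDR5 at -0.02.

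Whether a hairpin changed the glucagon response was tested as an interaction over all genes. For the WDR5 hairpin 0 genes were called and 20 had an unadjusted p below 0.05 (limma, 4 residual degrees of freedom). For the KAT2B hairpin the counts were 0 and 36, and 0 of the 8 factor genes reached an unadjusted p of 0.05 in either. Both counts lie far below a share of 0.05 of the 11480 genes tested. The lack of a call therefore does not show that a response was unchanged. For Onecut1 the glucagon difference in shWDR5 minus that in shNS was -0.48 ± 0.29 (95% interval -1.16 to 0.20), and in shKAT2B minus that in shNS it was 0.23 ± 0.29 (interval -0.45 to 0.91). Cebpb gave 0.16 ± 0.36 and 0.26 ± 0.36. These intervals leave room for changes as large as the glucagon effect itself. With the replicate block, in which both single PBS libraries count as letter A although they lay in the second batch, Cebpb was called for the KAT2B hairpin (0.45, adjusted p = 0.0456), and with the batch as a term it was not (adjusted p = 1).

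Of 24 other liver-enriched transcription factors 22 were measured and 18 tested. In the shKAT2B arm, where 8.95% of all genes were called lower and 6.66% higher, 3 fell and 0 rose, with a median of -0.13. They were Nr1i2, the xenobiotic receptor PXR (-1.16 ± 0.15, adjusted p = 0.00144), Hhex, an early liver bud homeobox factor (-0.45 ± 0.09, adjusted p = 0.00879) and Onecut2, the paralog of Onecut1 (-0.30 ± 0.06, adjusted p = 0.012). The calls of Hhex and Onecut2 ended without shKAT2B PBS A (adjusted p = 0.07 and 0.112). In the shWDR5 arm 1 fell, Creb3l3, a membrane-bound factor of the fasting liver (-0.72 ± 0.16, adjusted p = 0.0225), and 1 rose, Onecut2 (0.36 ± 0.06, adjusted p = 0.00903). Counts of 1 in 18 are near the 6.17% of all genes called lower and the 4.69% called higher. Creb3l3 missed without any 1 of 6 libraries, with adjusted p from 0.0549 without shWDR5 glucagon A to 0.117 without shWDR5 PBS A, the others being shNS PBS B, both shNS glucagon libraries and shWDR5 glucagon B. Onecut2 missed without shWDR5 PBS A alone (0.0808).

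Of these 18 factors 4 differed between the arms, 3 lower and 1 higher in shKAT2B. In either direction that share is near the 22.7% of all genes called in that comparison. Of all 11480 genes tested, 1318 were called lower and 1291 higher. Creb3l3 stood at 8.16 to 8.17 in shWDR5 and at 8.77 to 9.48 in shKAT2B, a direct difference of 1.01 ± 0.17 (adjusted p = 0.00319). Onecut2 differed by -0.65 ± 0.07 (adjusted p = 0.000315), Nr1i2 by -0.65 ± 0.16 (adjusted p = 0.0171) and Hhex by -0.48 ± 0.09 (adjusted p = 0.00618), each lower in shKAT2B. The Nr1i2 difference missed without shWDR5 glucagon A (adjusted p = 0.0515), shKAT2B glucagon B (0.0688) or the PBS library of either arm (0.0702 without that of shWDR5, 0.0892 without that of shKAT2B). The paralogs Onecut1 and Onecut2 had values of -0.31 (not called) and 0.36 in shWDR5 and of -0.70 and -0.30 in shKAT2B. Under glucagon 0 of the 18 were called, and Hhex had the smallest p, at 0.36 ± 0.07 (adjusted p = 0.0833; 0.000176 with the batch as a term).

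Hepatocyte products were taken as 78 genes, 38 for plasma proteins and 40 for hepatocyte enzymes and transporters, of which 64 were measured and 53 tested. In RNA from whole cultures, fewer cells of a type and less RNA per cell cannot be told apart. In the shKAT2B arm 15 of 53 products fell and 0 rose, with a median of -0.33 against 0.01 over all genes. The shares of all genes called were 8.95% lower and 6.66% higher. Beside the 5 lower factor genes stood lower plasma proteins: transthyretin (Ttr), a textbook target of HNF4A and the FOXA factors, apolipoprotein A-II (Apoa2), vitronectin (Vtn), heparin cofactor II (Serpind1) and fibrinogen alpha (Fga). Ttr stood at 11.37, 11.17 and 11.30 in shKAT2B against 12.02 to 12.32 in shNS, with no overlap, a difference of -0.91 ± 0.08 (adjusted p = 0.000316).

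Among the enzymes Tdo2, which starts tryptophan breakdown, stood at 8.80 to 8.99 in shKAT2B against 10.15 to 10.38 in shNS (-1.40 ± 0.09, adjusted p = 7.26e-05). Pklr, liver pyruvate kinase, stood at 11.31 to 11.43 against 12.45 to 12.70 (-1.22 ± 0.07, adjusted p = 5.09e-05). Both gaps were several times the spread within either arm. Apoa2 differed by -1.02 ± 0.14, Vtn by -1.0 ± 0.13, Serpind1 by -0.94 ± 0.15 and Fga by -0.75 ± 0.14. Cps1, which opens the urea cycle and is a C/EBP target, differed by -0.64 ± 0.16 (adjusted p = 0.0281). Alb, the albumin gene, was not called in this arm (-0.13 ± 0.07, adjusted p = 0.249). Of the 15 calls 9 held whichever library was left out, and the other 6, Cps1 with them, ended without shKAT2B PBS A, which left 9 (Cps1 at adjusted p = 0.13). Cps1 also missed without either shKAT2B glucagon library, shNS PBS B, shNS glucagon B or shWDR5 PBS A (adjusted p from 0.0518 to 0.0709), and Aldh1a1 (0.054) and Rbp4 (0.0746) without shKAT2B glucagon B.

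In the shWDR5 arm 7 of 53 products fell and 1 rose, with a median of -0.17 against -0.01 over all genes. The shares of all genes called were 6.17% lower and 4.69% higher. Beside lower Foxa3 and Prox1 stood Serpind1 (-0.74 ± 0.15), Kmo, an enzyme of tryptophan breakdown (-0.68 ± 0.18), Pklr (-0.60 ± 0.07, adjusted p = 0.00295), albumin (-0.30 ± 0.07, adjusted p = 0.0218), Fah, the last enzyme of tyrosine breakdown (-0.30 ± 0.08), protein C (Proc, -0.26 ± 0.07) and transferrin (Trf, -0.24 ± 0.04, adjusted p = 0.0106). Tdo2 rose, standing at 10.79 to 11.08 in shWDR5 (0.68 ± 0.09, adjusted p = 0.00385). The calls of Pklr, Trf and Tdo2 held whichever library was left out, and the other 5 each ended without at least 1: Serpind1 without shNS glucagon A (adjusted p = 0.0541), albumin without either shNS glucagon library, shNS PBS B, or the PBS or A glucagon library of shWDR5 (up to 0.0803), and Kmo, Fah and Proc without any 1 of 8, 8 and 9 libraries (up to 0.173, 0.155 and 0.145). The count of lower products was 2 without shNS glucagon A, 3 when shNS PBS B, shNS glucagon B or the PBS library of shWDR5 was left out, and 4 when either shWDR5 glucagon library, shKAT2B PBS A or shKAT2B glucagon B was. The count of higher products was 2 without shNS glucagon B or shWDR5 glucagon A.

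Of the 53 products 11 were lower and 3 higher in shKAT2B than in shWDR5. Over all 11480 genes tested, 1318 were called lower and 1291 higher in this comparison, 22.7% in either direction. Tdo2 was lower in shKAT2B than in shWDR5 by -2.08 ± 0.10 (adjusted p = 1.11e-05), Ttr by -0.89 ± 0.09 (adjusted p = 0.000299) and Apoa2 by -0.77 ± 0.15 (adjusted p = 0.00597). Ttr in shWDR5 stood at 12.13 to 12.20, inside the shNS range (-0.02 ± 0.08). The count of lower products was 6 without shWDR5 PBS A and 7 without shKAT2B PBS A, and the 3 higher ones (F9, Proc and Fah) fell to 0 or 1 without any 1 shKAT2B or shWDR5 library or without shNS glucagon A.

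**Figure D4:**
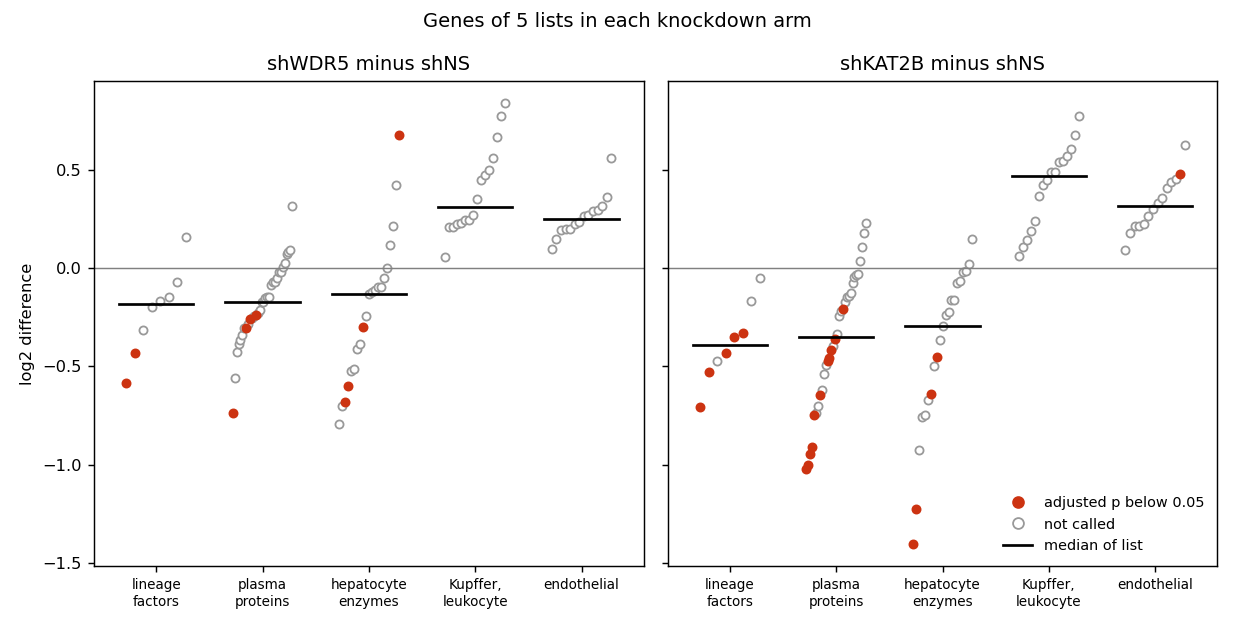
Differences from shNS (vertical axis, log2) of the genes of 5 lists in the shWDR5 arm (left) and the shKAT2B arm (right), 1 point a gene in order of its value, with filled points for adjusted p below 0.05 and a bar at the list's median. The lineage factors, plasma proteins and enzymes have medians below 0 in both arms, and the Kupffer cell and endothelial markers have medians above 0 in both.

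Textbook target genes of 2 of the factors were counted as lists that overlap with the products. Of 17 tested HNF4A targets 4 fell in shKAT2B (Pklr, Nr1i2, Apoa2 and Ttr) and 0 rose, with a median of -0.50, and 1 fell in shWDR5 (Pklr), with a median of -0.14. Of all genes 8.95% were called lower in shKAT2B and 6.17% in shWDR5, and the shWDR5 count is near that share. Glucagon raised 3 of the 17, where 0.679% of all genes were called higher. They were the gluconeogenic genes G6pc (3.16 ± 0.33) and Pck1 (1.64 ± 0.30, adjusted p = 0.0396) and Tat, which degrades tyrosine (2.92 ± 0.22), all of which are C/EBP targets as well. The Pck1 call ended without any 1 of 8 libraries, all but the A libraries of glucagon-treated shWDR5 and shKAT2B cells (adjusted p up to 0.174). Of 10 tested C/EBP targets 1 fell in each arm, Cps1 in shKAT2B (median -0.45) and Alb in shWDR5 (median -0.29), and 0 rose, which is near the 8.95% and 6.17% of all genes called lower. Trib1, a regulator of C/EBP-alpha degradation, fell with glucagon (-0.69 ± 0.11, adjusted p = 0.0197), and 7 libraries each ended that call when left out (adjusted p up to 0.0963). Promoter windows were found for 44 of the tested products. In these, TTGCNNAA stood in 14 of 49 windows (28.6%, against 10.8% of all windows), GTTAAT in 10 (20.4%, against 7.1%) and TGTTTAC in 3 (6.12%, against 3.65%). ATCAAT stood in 7 (14.3%, against 7.54%) and TATAAA in 12 (24.5%, against 13.6%). TGACG stood in 10, near its share of all windows (20.4%, against 20.8%), and the HNF4A motif CAAAGTCCA in 0 (against 0.475%). The 3 with TGTTTAC were among the 16 windows of products that fell in shKAT2B, of which 6 held TTGCNNAA and 4 held GTTAAT. Of the 6 windows of products that fell in shWDR5, 0 held TGTTTAC, 1 held TTGCNNAA and 1 held GTTAAT.

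Markers of Kupffer cells, leukocytes and endothelial cells had higher medians in both arms, and those of stellate cells and fibroblasts lay nearer to 0. Markers of bile duct cells and immature hepatocytes, treated below, had medians of -0.16 in shWDR5 and -0.27 in shKAT2B. Of all 11480 genes tested, 6069 lay below 0 in shWDR5 and 5529 in shKAT2B. Kupffer cell and leukocyte markers had a median difference of 0.31 in shWDR5 and 0.47 in shKAT2B, with 16 of 16 above 0 and 0 called in either arm. Endothelial markers had 0.25 and 0.32, with 14 of 14 above 0, and 1 called in shKAT2B, endoglin (Eng, 0.48 ± 0.11, adjusted p = 0.0204), whose call ended without shKAT2B PBS A, shKAT2B glucagon B, shNS PBS B or shNS glucagon A (adjusted p up to 0.152). Stellate cell and fibroblast markers had 0.04 and 0.11, with 1 of 12 lower in each arm, the smooth muscle gene Tagln (-0.32 ± 0.07 and -0.45 ± 0.07). The counts of 1 are near the shares of all genes called, 6.66% higher in shKAT2B for Eng, and 6.17% and 8.95% lower for Tagln. The shWDR5 call of Tagln was lost without the PBS or B glucagon library of that arm, shNS glucagon A or shNS PBS B (adjusted p up to 0.101). The mean level of the 19 measured Kupffer and leukocyte markers ranged from 8.39 to 9.07 in shNS, 8.71 to 9.24 in shWDR5 and 8.56 to 9.36 in shKAT2B, and none was at 0. By batch it did not overlap, at 8.39 to 8.71 in the first and 8.93 to 9.36 in the second. Endothelial markers split likewise (8.20 to 8.34 and 8.49 to 8.90), and stellate and fibroblast markers the other way (8.63 to 8.78 and 8.36 to 8.49). The knockdown arms hold a larger share of second-batch libraries than shNS, so these ranges by arm also carry the batch. With the batch as a term the Kupffer medians were 0.20 and 0.31, with 8 and 11 called higher, and the median of the 8 factor genes was -0.17 and -0.36. That fit called 4229 and 4766 of all 11480 genes in either direction. In that fit 4 of the 8 factor genes were called in shWDR5 (3 lower, 1 higher; 36.8% of all genes called), 7 were lower in shKAT2B (20.1% of all genes) and 4 were lower in shKAT2B than in shWDR5 (24.6%). The part of other cells in the lower factor and product values was not tested.

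Of 8 tested markers of bile duct cells and immature hepatocytes, 2 fell and 1 rose in shKAT2B (8.95% and 6.66% of all genes). In shWDR5 2 fell (6.17% of all genes). The markers called in shKAT2B were Afp, alpha-fetoprotein of the fetal liver (-1.12 ± 0.17, adjusted p = 0.00285), the bile duct keratin gene Krt7 (-0.44 ± 0.11) and Cd24a, a surface antigen of progenitor cells, which rose (0.55 ± 0.09, adjusted p = 0.00364). In shWDR5 they were Krt19 (-0.80 ± 0.21, adjusted p = 0.0433) and Krt7 (-0.46 ± 0.11, adjusted p = 0.0258). Afp and Cd24a held whichever library was left out. The keratin calls ended without any 1 of 7 libraries for Krt19, of 4 for Krt7 in shWDR5 and of 3 for Krt7 in shKAT2B, up to an adjusted p of 0.234 for Krt19 and 0.136 for Krt7 in shWDR5 and 0.157 for Krt7 in shKAT2B, each without the PBS library of the arm.

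As a description of likeness, the 3 genes whose log2 values correlated best over the 10 libraries were listed for each factor gene called in an arm. For Onecut1 they were Rbm47, Kctd15 and Hnf4a (Pearson r = 0.948, 0.946 and 0.937), and for Hnf4a they were Kctd15, Onecut1 and Rbm47 (0.946, 0.937 and 0.937), so the 2 factor genes were in each other's lists. For Foxa3 the closest was Bhmt2 (0.964), for Prox1 Rhou (0.979) and for Cebpa Id2 (0.939). The libraries share arms, treatments and batches, and these values were picked as the highest among 11480 genes.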

How the data were processed

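Affymetrix arrays were run on 10 libraries, and the authors deposited linear intensity values (4.47 to 22694) for 26913 features. Per the submitters' processing notes they used Affymetrix Expression Console 1.1.1; how values were normalized was not given in the sources used here. Precision is limited by the number of libraries. Values were taken as log2(intensity + 1), genes by their feature with 1 symbol (17873 features) and the highest mean, and the lowest 30% of genes were left out. limma 3.58.1 in R 4.3.3 (lmFit, eBayes with a trend) fitted arm and treatment (6 residual degrees of freedom) and, for interactions, the 6 groups (4); groups with 1 library were assumed to vary like the others. Tests were two-sided, with Benjamini-Hochberg adjustment over 11480 genes and calls at adjusted p below 0.05, and the scripts were tested on simulated data. Figures used Python 3.11.15 and matplotlib 3.10.9. Libraries are pools, and nothing in the labels says that letters are separate animals, so p-values measure the spread between libraries. Letters paired the libraries of the 4 groups with replicates: differences between B and A correlated across genes at r = 0.721 to 0.844 between groups. The single PBS libraries, lettered A, correlated better with glucagon B of their arm (0.9935 and 0.9947) than with A (0.9811 and 0.9735), after the glucagon difference of shNS B was added to them. Members and lists were chosen with earlier results of these data known. Genes of the lists were named by the size of their difference among called genes, up to 5 a direction and comparison, or by the smallest p where none was called. Promoters are from RefSeq (GRCm38.p6) and matched all 8 factor genes by symbol. Other settings tried are given at the end.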

Additional observations from a re-analysis of the deposited data

Results flagged for a closer look

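Foxa1 was set apart because its glucagon difference was above 0 in both shNS pairs of libraries (0.09 and 0.11) and below 0 in the 1 shWDR5 pair (-0.02). The interaction, fitted over all libraries with limma, was 0.04 ± 0.24 for Foxa1 (adjusted p = 1) and did not pass.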

How the results depend on the processing

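The calls of Foxa3 and Prox1 in both arms and of Hnf4a, Cebpa and Onecut1 in shKAT2B held in each of 12 settings other than left-out libraries. Of all differences recomputed, the only sign that turned was that of Foxa1 in shKAT2B (0.00 with the batch as a term, -0.14 to 0.027 over the libraries left out). The factor genes called were, in shWDR5, 4 with the batch as a term and 4 with the replicate block (1 to 2 over the libraries left out), in shKAT2B 0 to 6 over the libraries left out, between the arms 4 with the batch, 1 with the replicate block, 5 within the second batch (0 to 1 left out), and for glucagon 4 in each of these 3 fits and 0 after quantile normalization or median centring (0 to 1 left out). The interaction with the KAT2B hairpin called 1 factor gene with the replicate block. Products lower in shWDR5 numbered 31 with the batch, 13 with the replicate block, 20 within the second batch and 4 in the 2 arms alone (2 to 7 left out), and those higher 3, 2 and 3 (1 to 2 left out). Products lower in shKAT2B numbered 37 with the batch and 36 within the second batch (9 to 19 left out). Between the arms 21, 18 and 26 were lower (6 to 15 left out) and 8, 6 and 7 higher, with 0 in the 2 arms alone (0 to 3 left out).

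Over all genes, the batch term, the replicate block and the second batch gave 4229, 3064 and 3205 calls for shWDR5 (1246 in the main analysis, 813 in the 2 arms alone, 300 to 1414 left out), 4766, 3396 and 4267 for shKAT2B (1792; 598 to 2122 left out), 5788, 4139 and 5196 between the arms (2609; 1688 in the 2 arms alone, 1443 to 2680 left out) and 385, 287 and 309 for glucagon (106; 50 to 101 left out). Interactions called 0 genes in the main analysis, 545 (WDR5) and 1384 (KAT2B) with the replicate block and 2 (KAT2B) with the batch.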
